A study of Rattus norvegicus with 38 samples.

Results

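The transcription factor p53 responds to damaged DNA, and 6 of its best known targets were examined in rat lungs after cigarette smoke: Cdkn1a, Gadd45a, Mdm2, Ccng1, Bax and Btg2. Members were taken from the processed array table wherever a probe set was annotated with exactly 1 of these symbols, and 4 of the 6 genes met that rule, with 7 probe sets among them (numbered below by falling mean intensity, with their identifiers in the plots), out of 14217 genes with such a probe set. Cdkn1a had 2, Mdm2 had 3, and Ccng1 and Gadd45a had 1 each. Bax shares its listed probe set with another symbol, and Btg2 has none annotated to it alone, so neither was analysed here. When DNA is damaged, kinases stabilise p53, which then switches on genes that halt the cell cycle, help repair and can start cell death. Mdm2 closes the loop as a ubiquitin ligase that sends p53 for degradation, and p53 in turn drives Mdm2. In airways and alveoli, smoke is a source of bulky DNA adducts and oxidised bases, which is why this pathway is commonly followed there.

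The 38 animals were female N:NIH rats, aged 34 weeks, from lines bred for low (LCR) or high (HCR) intrinsic exercise capacity. They formed 4 groups: 12 LCR rats exposed to cigarette smoke, 7 LCR rats kept in room air as sham, 12 HCR rats exposed to smoke and 7 HCR rats in room air. Exposure was given on 5 days a week for 12 weeks, and RNA came from a piece of about 25 mg of whole lung, hybridised to 1 Affymetrix Rat Genome 230 2.0 array per animal. The lines differ by selective breeding, so a line difference carries every trait that came along with running capacity.

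All arrays gave lung profiles. The intensity of Sftpc, which encodes surfactant protein C, lay between 9829.9 and 10919 on every array, and that of the alveolar type 1 gene Ager between 3071 and 5771. Correlations between arrays were 0.962 to 0.997. Some arrays stood apart. HCR sham 0433 had a skeletal muscle marker mean of 4.97 and a fat marker mean of 2.49 (log2, relative to the mean of all arrays), against group medians between -0.26 and -0.03 for these lists, and it is among 6 arrays high in muscle or fat genes. The others were LCR sham 0442 and HCR smoke 0410, 0414, 0415 and 0417, with heart muscle marker means of 1.61 to 3.86. HCR sham 0432 had an Actb 3′ minus 5′ control difference of 2.06 (log2), against group medians of 0.65 to 0.84, and the lowest weight of 38 arrays when weights were estimated, 0.30. Where leaving these arrays out changed the smoke call of a member, values with and without them are given. Over all genes, 22.7% passed as higher and 27.9% as lower with smoke in LCR rats, and 17.7% and 30.4% in HCR rats. Centring each array on its median gave 5452 higher and 2970 lower genes in LCR rats in place of 3225 and 3968, and 3804 and 3362 in HCR rats in place of 2513 and 4317, so small changes depend on the scale chosen. Cell type markers moved as well: endothelial markers were lower with smoke in 9 of 10 genes in LCR and in 8 of 10 in HCR rats, alveolar type 1 markers in 7 of 9 and 8 of 9, and macrophage markers were higher in 11 of 15 and 8 of 15. In the opposite direction, 1 alveolar type 1 marker was higher in LCR rats, and 2 macrophage markers in LCR and 3 in HCR rats were lower. The part of these shifts in the changes below was not tested.

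Mdm2 was the sole member with a passing rise in the fit used throughout, and it also had the most probe sets. All 3 of its probe sets were higher in smoke-exposed HCR lungs, by 0.21 to 0.49 on the log2 scale, and 1 of the 3 was also higher in smoke-exposed LCR lungs, by 0.29. Some other settings ended the HCR calls of probe sets 1 and 3. On the probe set of highest mean the Mdm2 change in LCR rats, 0.06, was below those of Cdkn1a (0.15) and Ccng1 (0.12), none passing. Cdkn1a and Gadd45a, the growth-arrest members, were lower with smoke in HCR rats, by 0.34 and 0.23, in calls that several other settings ended. Ccng1 did not pass in either line, though it did in some other settings. In all, 3 of the 4 genes passed in HCR rats, where 48% of all genes did, and 0 of 4 in LCR rats, where 50.6% did, counting the probe set of highest mean for each gene. On these probe sets 0 of 4 had an unadjusted p under 0.05 in LCR rats. Changes are differences of log2(intensity + 16) from limma over all 38 arrays, with p-values adjusted by Benjamini-Hochberg over all genes, or over all 20826 probe sets with 1 symbol where further probe sets are described, and a threshold of 0.05.

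**Figure D1:**
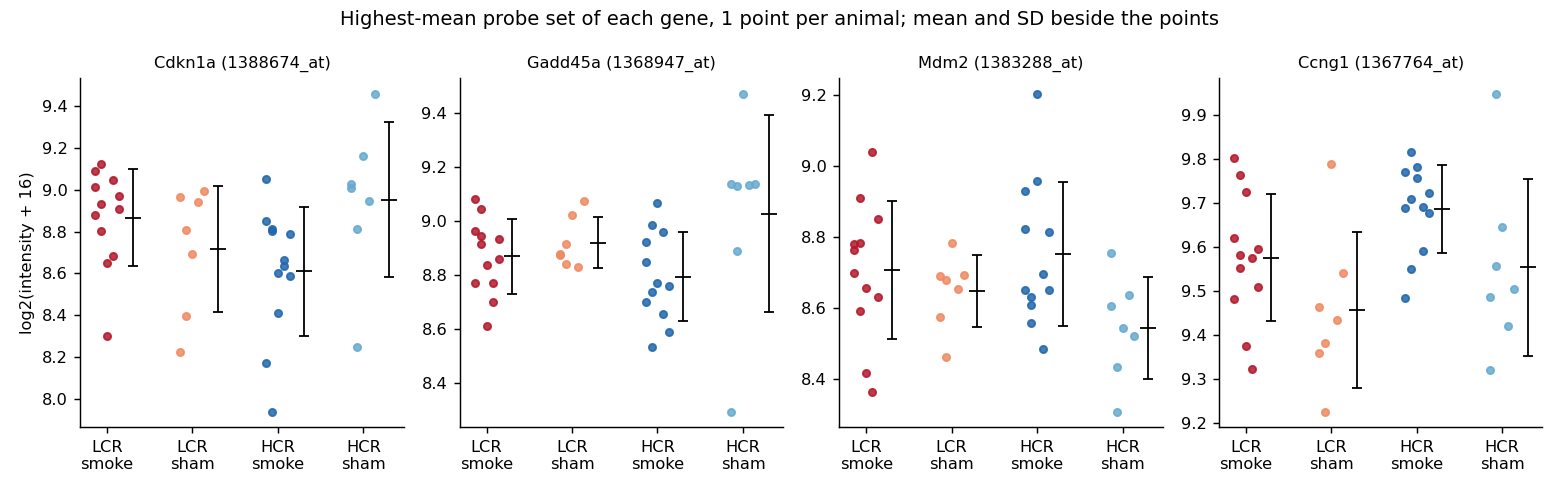
Each point is 1 animal, plotted as log2(intensity + 16) for the probe set of highest mean of Cdkn1a, Gadd45a, Mdm2 and Ccng1, by line and exposure; the bar beside the points is the mean with its SD. The ranges of smoke and sham animals overlap in all 8 pairs shown, and the HCR sham animals spread most for Cdkn1a (SD 0.37) and Gadd45a (SD 0.37).

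Cdkn1a encodes p21, which binds cyclin-dependent kinases and holds cells before S phase, and it is the classical target of p53. Its promoter is shown because it carries a match to the p53 half-site consensus, given here in capitals. The consensus pattern reads the same on both strands, though a single match to it need not. The match begins 201 bases before the transcription start in RefSeq. The 138 bases that lie outside the annotated gene run over chr20:7150682-7150819 on the plus strand of GRCr8.
Cdkn1a: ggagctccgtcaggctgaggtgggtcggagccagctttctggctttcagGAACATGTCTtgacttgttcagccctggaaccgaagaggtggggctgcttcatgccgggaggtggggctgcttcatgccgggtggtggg
Among 33469 rat promoters of 250 bases searched in the same way, 6.64% held at least 1 match, and 3 of the 4 members did. A match is a run of letters and no measure of binding.

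Cdkn1a probe set 1 had intensities between 229.8 and 514 (median 386) in HCR smoke lungs, against 288 to 686 (median 499) in HCR sham lungs. Of the 12 smoke-exposed HCR rats, 11 lay below the sham mean, but only 2 lay below the lowest sham animal, so the groups overlapped. The log2 means were 8.61 ± 0.31 with smoke and 8.95 ± 0.37 with sham (SD). The difference was -0.34 ± 0.14 (SE; limma adjusted p = 0.0393).

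In LCR rats the same probe set had intensities between 300.04 and 542 (median 469) with smoke, against 283 to 494 (median 432) with sham. The ranges lay almost on top of each other. The difference was 0.15 ± 0.14, with a 95% interval of -0.13 to 0.43 (limma adjusted p = 0.370). The difference between the lines' smoke changes, LCR minus HCR, was 0.49 ± 0.19, larger than that of 97.0% of genes. Its SE was likewise larger than that of 93.2% of genes, and with a limma adjusted p of 0.156 the difference did not pass.

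Cdkn1a probe set 2 was dim, with intensities of 36.4 to 103 (median 79.6) in LCR smoke lungs, against 42.7 to 69.6 (median 64.9) in LCR sham lungs. In HCR lungs they were 11.7 to 73.7 (median 44.1) with smoke, against 37.2 to 97.8 (median 41.5) with sham. The LCR smoke animals stood highest as a group. Its smoke changes were 0.28 ± 0.19 in LCR rats (limma adjusted p = 0.236) and -0.33 ± 0.19 in HCR rats (adjusted p = 0.164), neither passing. Both Cdkn1a probe sets thus had estimates above 0 in LCR and below 0 in HCR rats, and they varied together among animals of 1 group (r = 0.74 over 38 arrays).

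The line difference under smoke was larger on this probe set. It was higher in LCR smoke than in HCR smoke lungs by 0.64 ± 0.16 (limma adjusted p = 0.0171), where 5.41% of probe sets passed in either direction and 4.61% of genes as higher and 1.7% as lower, and 11 of the 12 LCR animals lay above the HCR mean. Without each array in turn the value stayed between 0.55 and 0.71 and passed every time. Probe set 1 showed 0.26 ± 0.12 in the same comparison and did not pass (adjusted p over genes = 0.174). Under sham the lines did not differ by a passing amount on either probe set, at -0.23 ± 0.15 and 0.04 ± 0.21 (3.39% of probe sets passed).

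The fall of Cdkn1a in HCR rats did not hold in every setting. It missed the threshold after quantile normalization (-0.28, adjusted p = 0.105), after median centring (-0.30, adjusted p = 0.0701), as the mean of both probe sets (-0.33, adjusted p = 0.0721), and with each control ratio or the array spread as a covariate (-0.29 to -0.33, adjusted p = 0.0728 to 0.206). Fitting HCR arrays alone gave an adjusted p of 0.0721. Leaving out any 1 of HCR sham 0432, 0434, 0435, 0436 or 0438, or HCR smoke 0408, 0409 or 0410, also ended it, with changes of -0.26 to -0.34 and adjusted p-values of 0.0557 to 0.127. The estimate was below 0 in all of these. Other settings kept the call. The change was -0.48 ± 0.15 without the 6 arrays high in muscle or fat genes (limma adjusted p = 0.0123). With array weights it was -0.38 (limma adjusted p = 0.0280).

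Gadd45a encodes a small stress protein that binds PCNA and p21 and takes part in cell cycle arrest and DNA repair. Its promoter likewise holds 1 half-site match, in capitals, beginning 48 bases before the RefSeq start, in a window at chr4:97486800-97487049 on the minus strand of GRCr8.
Gadd45a: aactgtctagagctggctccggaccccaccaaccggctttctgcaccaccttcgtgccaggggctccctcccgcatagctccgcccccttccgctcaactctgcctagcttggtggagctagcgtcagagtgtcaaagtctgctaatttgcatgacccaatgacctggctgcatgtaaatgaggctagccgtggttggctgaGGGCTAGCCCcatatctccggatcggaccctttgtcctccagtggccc
Its probe set had intensities between 354 and 520.0 (median 419) in HCR smoke lungs, against 298 to 693 (median 546) in HCR sham lungs. Of the 12 smoke-exposed HCR rats, 11 lay below the sham mean, yet every one lay within the wide sham range. The log2 means were 8.79 ± 0.17 with smoke and 9.03 ± 0.37 with sham (SD), and the difference was -0.23 ± 0.09 (SE; limma adjusted p = 0.0366). The lowest of all 38 Gadd45a values belonged to HCR sham 0432, at 8.29.

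In LCR rats Gadd45a had intensities of 375 to 525.6 (median 458) with smoke, against 439.5 to 524 (median 455) with sham. In this line these were the tightest groups of any member, with SDs of 0.14 and 0.09, and their medians nearly coincided. The difference was -0.05 ± 0.09, with a 95% interval of -0.24 to 0.14 (limma adjusted p = 0.666). The smoke changes of the lines differed by 0.18 ± 0.13, which did not pass (adjusted p = 0.469).

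The HCR call for Gadd45a was lost after quantile normalization (-0.17, adjusted p = 0.139), after median centring (-0.19, adjusted p = 0.0780), with only HCR arrays in the fit (adjusted p = 0.107) and with each array's interquartile range in the fit (-0.12, adjusted p = 0.535). That range, the spread of log2 values on an array, was 2.74 to 2.94 in HCR smoke lungs, against 2.94 to 3.04 in HCR sham lungs. Leaving out any 1 of HCR sham 0434, 0435, 0436, 0438 or 0439, or HCR smoke 0412, 0416, 0418 or 0419, ended it as well, with changes of -0.16 to -0.23 and adjusted p-values of 0.0515 to 0.149. Without HCR sham 0432 it passed, at -0.36, and without the 6 arrays high in muscle or fat genes, at -0.28 (limma adjusted p = 0.0474).

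Other settings gave a larger fall of Gadd45a. With the 3′ minus 5′ difference of Actb or Gapdh in the fit it was -0.39 and -0.38 in HCR rats (limma adjusted p = 0.000106 and 0.000309). In LCR rats it was -0.17 and -0.12 and did not pass (limma adjusted p = 0.0602 and 0.174). Within groups Gadd45a went with the Actb difference at r = -0.68 and rho = -0.40 (permutation adjusted p = 0.217 and 0.197), which did not pass, and r was -0.31 without the 2 farthest arrays.

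**Figure D2:**
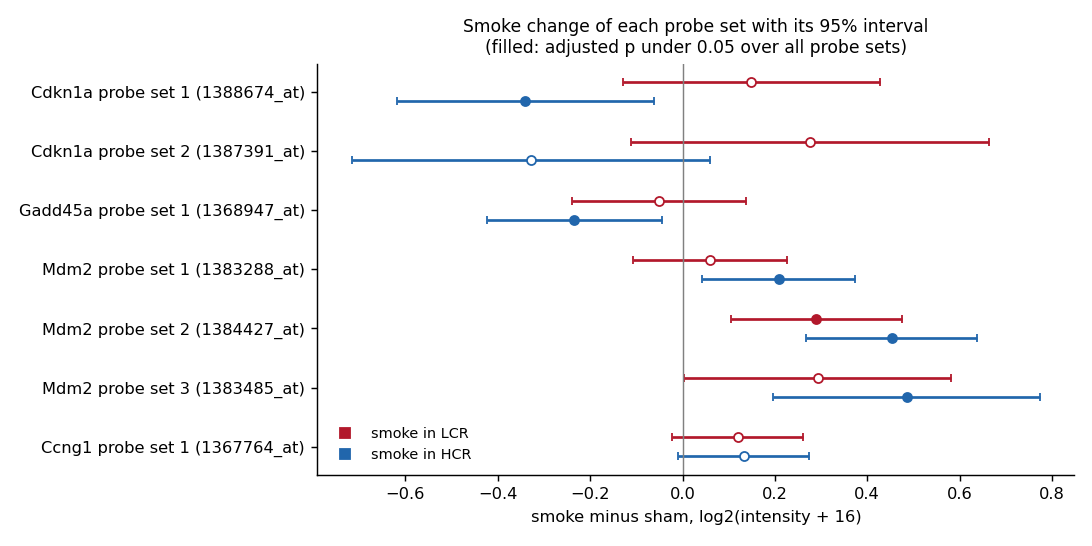
Smoke minus sham change of log2(intensity + 16) for each of the 7 member probe sets, in LCR (red) and HCR (blue) rats, with 95% intervals; filled points passed at an adjusted p of 0.05 over all probe sets. The Mdm2 points lie right of 0 in both lines, while the Cdkn1a points lie right of 0 in LCR and left of 0 in HCR rats.

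Mdm2, the inhibitor that p53 itself induces, was measured by 3 probe sets. Its RefSeq promoter window lies inside the annotated gene, which begins further upstream, and no half-site match was found there. Mdm2 probe set 1 had intensities between 342 and 573 (median 393) in HCR smoke lungs, against 301 to 416 (median 357) in HCR sham lungs. Of the 12 smoke-exposed HCR rats, 11 lay above the sham mean and 5 above the highest sham animal. The difference was 0.21 ± 0.08 (limma adjusted p = 0.0350).

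In LCR rats this probe set had intensities of 313 to 511 (median 409) with smoke, against 337 to 424 (median 394) with sham. The smoke animals reached both above and below the sham range. The difference was 0.06 ± 0.08 (95% interval -0.11 to 0.23; limma adjusted p = 0.558).

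Mdm2 probe set 2 had the smallest adjusted p with smoke among the member probe sets in both lines. Its intensities were 274.8 to 445 (median 350.2) in LCR smoke lungs, against 258 to 323 (median 285) in LCR sham lungs. They were 269.8 to 512 (median 349) in HCR smoke lungs, against 186 to 287 (median 272) in HCR sham lungs. The highest sham value was exceeded by 10 of 12 smoke animals in LCR and by 11 of 12 in HCR rats, so the ranges overlapped only at their edges. The changes were 0.29 ± 0.09 in LCR (limma adjusted p = 0.00933) and 0.45 ± 0.09 in HCR rats (limma adjusted p = 0.000152), where 46.3% and 42.9% of probe sets passed. Without each array in turn they lay between 0.26 and 0.32 in LCR and between 0.38 and 0.49 in HCR rats, and they passed in both lines under every alternative run for them.

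Mdm2 probe set 3, the dimmest, had intensities of 68.3 to 121 (median 98.1) in LCR smoke lungs, against 64.8 to 93.3 (median 76.8) in LCR sham lungs. In HCR lungs they were 47.0 to 136 (median 97.4) with smoke, against 19.7 to 88.5 (median 72.2) with sham. In both lines 11 of 12 smoke animals lay above the sham mean. The change passed in HCR rats, at 0.49 ± 0.14 (limma adjusted p = 0.00613), and not in LCR rats, at 0.29 ± 0.14 (adjusted p = 0.0894). Its lowest value, 5.16 on the log2 scale, was HCR sham 0432, whose omission gave 0.30 in HCR rats, still passing, and made the LCR change pass (0.29, adjusted p = 0.0223). With the Actb 3′ minus 5′ difference as a covariate the HCR change was 0.21 (adjusted p = 0.0816).

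The call of Mdm2 probe set 1 in HCR rats was lost with only HCR arrays in the fit (adjusted p = 0.0522) and without the 6 arrays high in muscle or fat genes (0.12 ± 0.08, adjusted p = 0.272). Leaving out any 1 of HCR sham 0433, 0434, 0436 or 0439, or HCR smoke 0410, 0413 or 0415, also ended it, with changes of 0.17 to 0.21 and adjusted p-values of 0.0515 to 0.0983. The smoke change did not differ between the lines by a passing amount on any Mdm2 probe set, where 1.75% of probe sets passed, with differences of -0.15 ± 0.12, -0.16 ± 0.13 and -0.19 ± 0.20.

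The 3 Mdm2 probe sets followed different animals in part. Within groups, probe set 2 went with probe set 1 (r = 0.71) and with probe set 3 (r = 0.85), whereas probe set 1 and probe set 3 shared less (r = 0.31, each over 38 arrays). Probe set 1 also went with airway epithelium. Its values minus group means followed the mean of 7 club and ciliated cell markers, Scgb1a1, Cyp2f4, Foxj1, Tekt1, Tekt2, Rsph1 and Ccdc113, with r = 0.84 and rho = 0.82. Among 120 relations between members and lists or array measures, the permutation p was 1e-05 for both, the smallest that 100000 resamples can give, and 0.0012 adjusted. Without the 2 arrays farthest from the median r was 0.80. The same r was 0.61 for probe set 2 and 0.28 for probe set 3. With single markers, r of probe set 1 was 0.53 to 0.86 for the 5 genes of ciliated cells, and 0.75 and 0.47 for the club cell genes Cyp2f4 and Scgb1a1. Scgb1a1 intensities ran only from 9614 to 11118 over the arrays, near the highest intensity in the data, which leaves little spread to compare.

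**Figure D3:**
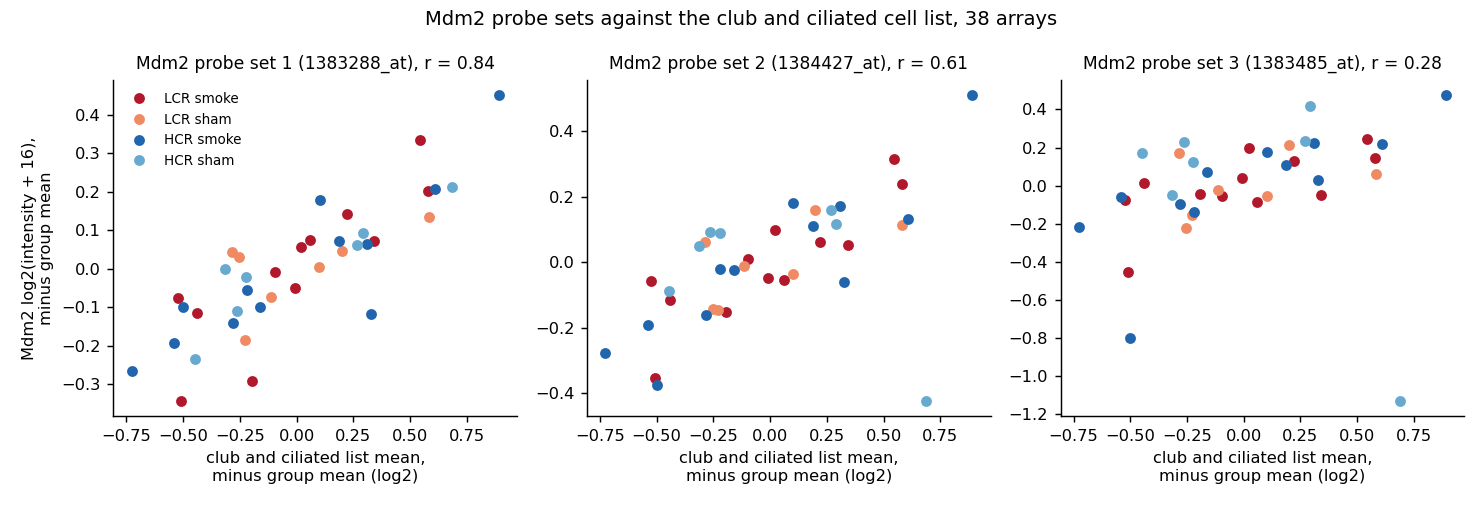
Each point is 1 array: the mean of 7 club and ciliated cell markers against each of the 3 Mdm2 probe sets, both as log2 values minus their group means, with LCR smoke, LCR sham, HCR smoke and HCR sham in different colours. The points of probe set 1 rise together with the markers (r = 0.84), those of probe set 2 less so (r = 0.61), and probe set 3 shows little relation (r = 0.28), with HCR sham 0432 lowest.

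The airway markers themselves moved with smoke in LCR rats, where 0 of 7 passed as higher and 4 as lower, with a median change of -0.46. In HCR rats 0 of 7 passed in either direction. Their mean ran between -0.70 and 0.41 in LCR smoke lungs, against 0.02 to 0.89 in LCR sham lungs. In HCR lungs it ran between -0.71 and 0.91 with smoke, against -0.48 to 0.65 with sham. In whole lung, fewer cells of a type and less RNA per cell cannot be told apart. With this mean as a covariate, a setting chosen after the data were seen, the change of probe set 1 was 0.23 ± 0.05 in LCR (limma adjusted p = 0.000286) and 0.19 ± 0.05 in HCR rats (limma adjusted p = 0.000965). The change of probe set 2 passed in both lines with and without the covariate.

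Mdm2 probe set 1 also followed the NRF2 target list (r = 0.65, rho = 0.62, permutation adjusted p = 0.0024 and 0.0105), the list of other p53 targets (r = 0.62, rho = 0.60, permutation adjusted p = 0.0024 and 0.0084) and the smooth muscle and fibroblast markers (r = 0.60, rho = 0.58, permutation adjusted p = 0.0042 and 0.01). Without the 2 farthest arrays these were 0.62, 0.66 and 0.57. The 3 genes whose values went most closely with it over the 38 arrays were Dnai7, Dnah7 and Fam216a (r = 0.89 each). Dnai7 and Dnah7 belong to the dynein machinery that moves cilia.

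Ccng1 encodes cyclin G1, a p53 target that recruits a phosphatase to Mdm2. Its promoter window, at chr10:25684877-25685126 on the minus strand of GRCr8, holds 1 half-site match beginning 232 bases before the RefSeq start.
Ccng1: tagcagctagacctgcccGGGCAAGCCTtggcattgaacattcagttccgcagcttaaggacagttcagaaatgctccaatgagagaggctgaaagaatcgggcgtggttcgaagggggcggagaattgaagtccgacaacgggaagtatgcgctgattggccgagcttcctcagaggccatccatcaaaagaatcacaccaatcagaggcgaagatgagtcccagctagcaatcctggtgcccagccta
Its probe set had intensities of 624 to 878 (median 749) in LCR smoke lungs, against 583 to 869 (median 676) in LCR sham lungs. In HCR lungs they were 701 to 885 (median 816) with smoke, against 623 to 972 (median 710.1) with sham. In each line 10 of 12 smoke animals lay above the sham mean, but 1 sham animal lay high in each and the ranges overlapped nearly whole. The differences were 0.12 ± 0.07 in LCR (limma adjusted p = 0.155) and 0.13 ± 0.07 in HCR rats (adjusted p = 0.117).

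Those high sham animals were LCR sham 0442 and HCR sham 0433, both among the 6 arrays high in muscle or fat genes. The skeletal muscle marker mean was 0.33 in LCR sham 0442 and 4.97 in HCR sham 0433, and the heart muscle marker mean 3.86 and 1.84. Without those 6 arrays Ccng1 passed in both lines, at 0.17 ± 0.06 in LCR (limma adjusted p = 0.0171) and 0.16 ± 0.06 in HCR rats (limma adjusted p = 0.0475). Leaving out LCR sham 0442 alone gave 0.17 in LCR rats (adjusted p = 0.0345). Leaving out HCR sham 0433 alone gave 0.20 in HCR rats (adjusted p = 0.0142). With no array left out, median centring gave 0.18 in both lines (limma adjusted p = 0.0239 in LCR and 0.0288 in HCR rats). Quantile normalization gave 0.17 in HCR rats (limma adjusted p = 0.0345) and 0.13 in LCR rats, not passing (adjusted p = 0.101). Array weights gave 0.15 in LCR rats (limma adjusted p = 0.0203) and 0.12 in HCR rats, not passing (adjusted p = 0.108). With either control ratio or the array spread in the fit, Ccng1 passed in neither line. Within groups Ccng1 followed the skeletal muscle list (r = 0.56, rho = 0.46, permutation adjusted p = 0.00888 and 0.0486), with r = 0.43 without the 2 farthest arrays. The heart muscle list did not pass (r = 0.41, rho = 0.17, permutation adjusted p = 0.148 and 0.576). Whether muscle tissue in the piece sets these values was not tested. The genes most like Ccng1 over the arrays were Apoo, Mpc1 and Timm17a (r = 0.82, 0.81 and 0.72), which encode mitochondrial proteins.

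The group order of the levels differed among the members. By log2 mean, Cdkn1a probe set 1 ran HCR sham 8.95, LCR smoke 8.87, LCR sham 8.72 and HCR smoke 8.61. Gadd45a ran HCR sham 9.03, LCR sham 8.92, LCR smoke 8.87 and HCR smoke 8.79. Both thus had their extremes within the HCR line, and the ranges of neighbours in these orders overlapped. Mdm2 probe set 1 ran HCR smoke 8.75, LCR smoke 8.71, LCR sham 8.65 and HCR sham 8.54. Ccng1 ran HCR smoke 9.69, LCR smoke 9.58, HCR sham 9.55 and LCR sham 9.46. For these, each line's smoke group stood above its sham group, with ranges that overlapped.

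Between the lines, 0 of 4 members passed under smoke, where 6.32% of genes did, and 0 of 4 under sham, where 3.73% did. The limma adjusted p-values were 0.174 to 0.738 under smoke and 0.462 to 0.651 under sham, and Cdkn1a under smoke was the sole one with an unadjusted p under 0.05, at 0.0361. The line by smoke interaction passed for 0 of 4, where 1.87% of genes passed and 1.52% as higher in LCR, again with Cdkn1a alone under 0.05 unadjusted, at 0.0161. Group ranges overlapped for every member probe set in every comparison, where 14.5% of genes had smoke and sham ranges apart in LCR and 5.87% in HCR rats, and 0.0844% had the lines' ranges apart under smoke and 0.858% under sham.

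From animal to animal, no pair of members passed a test of varying together. Over the 6 pairs of the 4 genes, r of values minus group means lay between -0.16 and 0.32 (permutation adjusted p of 0.468 or more for r, and 0.417 or more for rho). Genes most like Cdkn1a were Ccdc92, Atp7a and Top1 (r = 0.71, 0.68 and 0.66), and those most like Gadd45a were Psmb1, Usp47 and Clcc1 (r = 0.80, 0.76 and 0.75). Without the 2 farthest arrays r was 0.57 to 0.58 for the neighbours of Cdkn1a and 0.50 to 0.61 for those of Gadd45a.

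Other targets of p53 split between directions. The lists below were drawn up with earlier results of these data known, and their counts stand against all genes, of which 22.7% were higher and 27.9% lower in LCR rats and 17.7% and 30.4% in HCR rats. Of 36 measured targets outside the members, 12 were higher and 8 lower with smoke in LCR rats, with a median change of 0.06 against 0.00 over all genes. In HCR rats 7 were higher and 11 lower, with a median of -0.02 against -0.03. Phlda3, which restrains Akt at the membrane, fell by 0.65 in LCR and by 0.44 in HCR rats (limma adjusted p = 1.53e-07 and 8.62e-05). Sesn1, a sestrin that curbs mTORC1 signalling, fell by 0.50 and by 0.55 (limma adjusted p = 1.8e-05 and 5.43e-06). Ercc5, an endonuclease of nucleotide excision repair, fell by 0.38 and by 0.40 (limma adjusted p = 4.03e-05 and 2.8e-05). Pcna, the sliding clamp of DNA replication, rose by 0.29 and by 0.17 (limma adjusted p = 4.95e-07 and 0.00113).

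At the upper end, and named after their values were seen, stood the stress cytokine Gdf15 and the G2 checkpoint protein Sfn. Gdf15 rose by 0.96 ± 0.20 in LCR and by 1.06 ± 0.20 in HCR rats. Sfn rose by 0.90 ± 0.22 and by 0.65 ± 0.22. The death receptor Fas rose by 0.26 in LCR and by 0.29 in HCR rats, and the apoptosis nuclease Aen by 0.32 and by 0.29. These 4 genes passed in both lines, as did Phlda3, Sesn1 and Ercc5 in the other direction. The counts moved with the scale: median centring gave 17 higher and 5 lower in LCR and 9 and 11 in HCR rats, and quantile normalization gave 14 and 5, and 10 and 9.

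**Figure D4:**
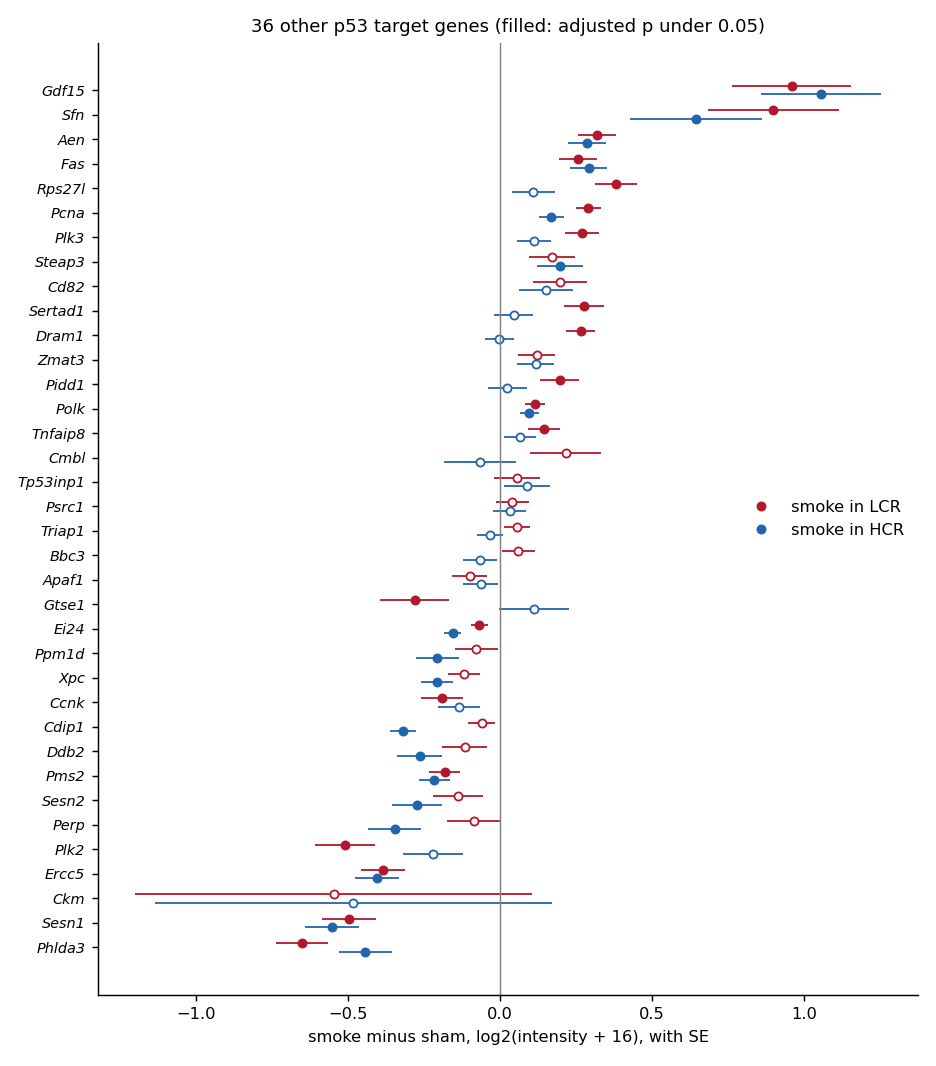
Smoke minus sham change of log2(intensity + 16) with SE for 36 other p53 target genes in LCR (red) and HCR (blue) rats, sorted by the mean of both lines; filled points passed at an adjusted p of 0.05. Gdf15 and Sfn lie farthest right and Phlda3 and Sesn1 farthest left, with most genes within 0.5 of 0.

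Of 21 measured genes of the p53 family and its regulators, 2 were higher and 5 lower in LCR rats (median -0.05), and 3 were higher and 7 lower in HCR rats (median -0.03). That is 33.3% called in LCR and 47.6% in HCR rats, against 50.6% and 48% of all genes, and falls outnumbered rises over all genes too. Ppp1r13b, an ASPP protein that steers p53 to apoptosis genes, fell by 0.42 in LCR and by 0.47 in HCR rats (limma adjusted p = 4.35e-07 and 1.32e-07). Hipk2, a kinase that phosphorylates p53, fell by 0.60 and by 0.51 (limma adjusted p = 2.2e-05 and 0.00025). Kat5, an acetyltransferase of p53 and ATM, fell by 0.25 and by 0.37 (limma adjusted p = 0.000691 and 4.94e-06). After median centring the counts were 5 higher and 5 lower in LCR and 6 and 4 in HCR rats.

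Damage sensors and checkpoint kinases counted 6 higher and 7 lower of 22 in LCR rats (median -0.00) and 3 higher and 7 lower in HCR rats (median -0.07). The 59.1% and 45.5% called lay near the 50.6% and 48% of all genes. H2ax, the histone marked at breaks, rose by 0.40 in LCR and by 0.16 in HCR rats (limma adjusted p = 6.3e-06 and 0.0421). Clspn, the adaptor that lets ATR activate Chk1, fell by 0.39 and by 0.68 (limma adjusted p = 0.000907 and 6.8e-07). Prkdc, the kinase of end joining, fell by 0.23 and by 0.35, and Wee1, the kinase that blocks entry to mitosis, rose by 0.25 and by 0.47. Chek2 rose by 0.21 in LCR rats and measured 0.05 in HCR rats, where it did not pass. The line by smoke interaction passed for 0 of these 22 genes.

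Of 24 nucleotide excision repair genes, 5 were higher and 6 lower in LCR rats (median -0.08), and 3 were higher and 13 lower in HCR rats (median -0.11), where 27.9% and 30.4% of all genes were lower. The smoke change differed between the lines by a passing amount for 0 of these 24 genes and for 0 of 19 base excision repair genes (limma interaction). Over all genes 1.87% passed. An unadjusted p under 0.05 was found for 4 and 5 of them, but its share over all genes was not counted. A difference between the lines was thus not shown. Xpa, which verifies the lesion, fell by 0.36 in LCR and by 0.48 in HCR rats (limma adjusted p = 0.000282 and 8.84e-06), and Rad23b, which stabilises the XPC complex, rose by 0.26 and by 0.31. The 13 falls in HCR rats numbered 10 after median centring or without the 6 arrays, 6 after quantile normalization and 2 with the array spread in the fit. Base excision repair counted 4 higher and 5 lower of 19 in LCR and 3 and 8 in HCR rats. There Nthl1, a glycosylase for oxidised pyrimidines, fell by 0.65 and by 0.55 (limma adjusted p = 1.14e-10 and 1.17e-08), while Apex1, the main abasic site endonuclease, rose by 0.51 and by 0.32 (limma adjusted p = 3.39e-08 and 6.81e-05).

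Double-strand break repair counted 6 higher and 4 lower of 27 in LCR rats and 4 higher and 10 lower in HCR rats, with medians of -0.01 and -0.08. The share called was 37.0% in LCR rats, against 50.6% of all genes, and 51.9% in HCR rats, near the 48% of all genes. Fancl, the ubiquitin ligase of the Fanconi pathway, fell by 0.42 in both lines (limma adjusted p = 5e-08 and 1.69e-07). Polm, a polymerase of end joining, fell by 0.43 and by 0.53. After median centring it was 6 higher and 6 lower in HCR rats, and with the array spread in the fit 1 and 2.

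Of 24 Bcl2 family members, caspases and their partners, 10 were higher and 4 lower in LCR rats (median 0.12), and 7 were higher and 5 lower in HCR rats (median 0.06). Over all genes 22.7% were higher and 27.9% lower in LCR rats, and 17.7% and 30.4% in HCR rats. Bcl2a1, a survival protein of the Bcl2 family, rose by 1.39 in LCR and by 1.10 in HCR rats (limma adjusted p = 4.07e-11 and 1.39e-08). Birc3, an inhibitor of apoptosis, rose by 0.78 and by 0.85, and Bid, a death-promoting BH3 protein, by 0.57 and by 0.50. Bcl2l11, which encodes the death-promoting protein Bim, fell by 0.41 and by 0.57. Without the 6 arrays the HCR counts were 4 higher and 4 lower. Bcl2a1 is known for its expression in leukocytes. Neutrophil markers were higher in 6 of 9 genes in LCR and in 5 of 9 in HCR rats. The neutrophil marker mean ran between 0.18 and 0.68 in LCR smoke lungs, against -0.83 to -0.44 in LCR sham lungs, and between -0.25 and 0.81 in HCR smoke lungs, against -1.02 to 0.47 in HCR sham lungs. Their part in the Bcl2a1 change was not tested.

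**Figure D5:**
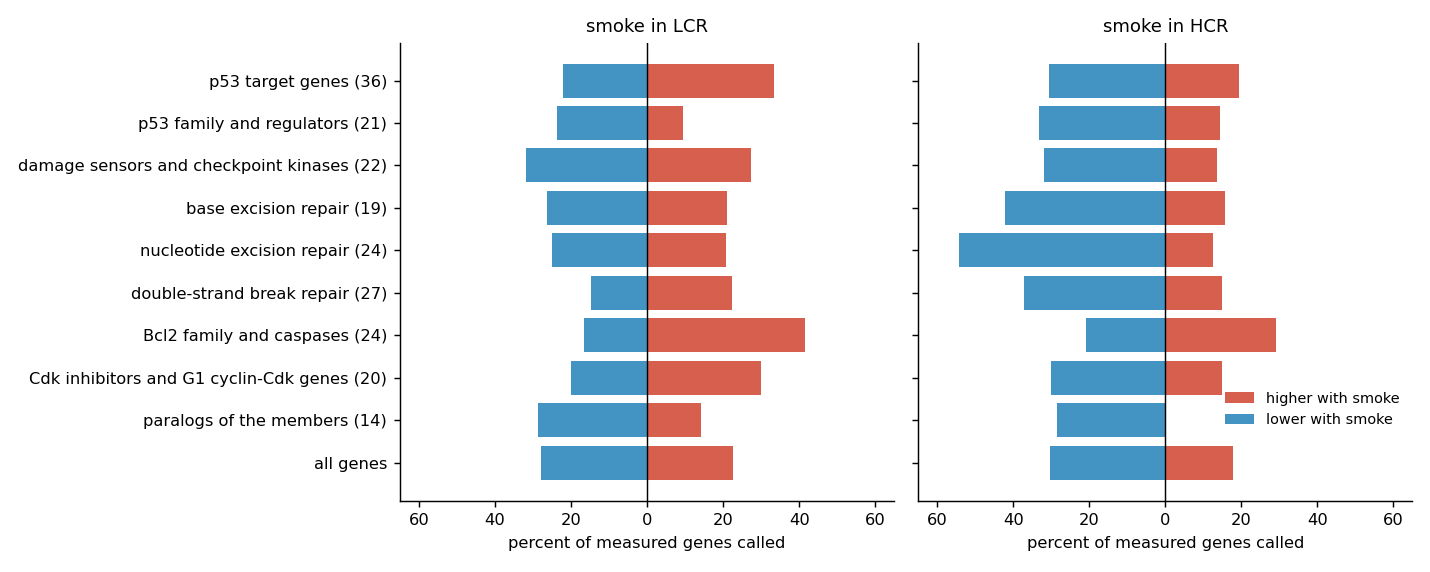
Percent of measured genes that passed as higher (red, right) or lower (blue, left) with smoke, for 9 gene lists and for all genes, in LCR (left panel) and HCR rats (right panel); the number of measured genes stands in brackets. Bcl2 family and caspase genes have the longest bar to the right in LCR rats, and nucleotide excision repair genes the longest to the left in HCR rats.

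Of 14 measured relatives of the members, 2 were higher and 4 lower in LCR rats and 0 were higher and 4 lower in HCR rats. The shares called were 42.9% and 28.6%, against 50.6% and 48% of all genes. Cdkn1c, the p57 relative of Cdkn1a, fell by 0.81 in LCR and by 0.89 in HCR rats (limma adjusted p = 5.45e-06 and 1.89e-06), larger than any change of Cdkn1a. Cdkn1b, which encodes p27, fell by 0.20 in LCR rats and measured -0.11 in HCR rats, where it did not pass. Gadd45g rose by 0.83 in LCR rats (limma adjusted p = 0.000135) and measured 0.23 in HCR rats. Gadd45b fell by 0.39 in HCR rats (limma adjusted p = 0.00349) and measured -0.07 in LCR rats. The line by smoke interaction passed for 0 of these 14 genes, so no difference between the lines was shown.

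Mdm4, the partner that Mdm2 pairs with to restrain p53, measured -0.32 ± 0.16 in LCR and -0.13 ± 0.16 in HCR rats and did not pass in either. Ccng2 measured -0.09 and -0.03, while Ccni fell by 0.23 and by 0.18. Of the relatives of Bax, Bak1 measured 0.13 and 0.05 and Bok -0.10 and 0.12, with no call. Among the relatives of Btg2, Btg3 rose by 0.27 and Btg1 fell by 0.07 in LCR rats, Tob2 fell by 0.20 in HCR rats, and Btg4 and Tob1 did not pass.

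Genes of the G1 transition counted 6 higher and 4 lower of 20 in LCR and 3 and 6 in HCR rats. Ccne1, cyclin E1, rose by 0.35 and by 0.20, and Rbl2, a pocket protein that keeps cells quiescent, fell by 0.51 and by 0.38. Genes of S phase and mitosis, which p21 acts to hold back, counted 16 higher and 1 lower of 24 in LCR and 15 and 2 in HCR rats, with medians of 0.39 and 0.31. Cdk1 rose by 0.86 in LCR rats (limma adjusted p = 1.26e-08), and Plk1 rose by 0.48 in LCR and by 0.43 in HCR rats. NRF2 targets, which answer to oxidants, counted 11 higher of 13 in both lines, with Nqo1 higher by 1.98 in LCR and by 2.34 in HCR rats.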

How the data were processed

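Lungs of 38 rats were measured on Affymetrix Rat Genome 230 2.0 arrays. The authors deposited 1 linear intensity per probe set and array in a single table; the software and normalization are not given in the sources used here. Of 31099 probe sets, 57 were controls, 20826 carried 1 symbol, 436 several and 9780 none in the platform annotation; 20758 matched the RefSeq table. Each of 14217 genes was taken from its probe set of highest mean. Values were log2(intensity + 16), with no further normalization, and 4 group means over 38 arrays were fitted in limma 3.58.1 (R 4.3.3), two-sided, with Benjamini-Hochberg adjustment and a threshold of 0.05. p-values measure the spread among animals. The number of arrays limits the precision. Correlations used values minus group means, with 100000 permutations of arrays within groups. The planned test of 15 pairs became 6, since 4 genes were measurable. Promoters came from RefSeq (GRCr8).

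On simulated data with 200 changed genes of 14217, the smoke fit recovered 90% of changes of 0.5 and 98% of changes of 1 (log2) in LCR and 89% and 98% in HCR rats. Named genes were the members, their paralogs, up to 3 genes per list and smoke comparison of smallest p, and the 3 genes most like each member. Members and lists were chosen with earlier results of these data known. Alternatives were other scalings, pseudocounts, filters, covariates, array weights and arrays left out.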

Additional observations from a re-analysis of the deposited data

Results flagged for a closer look

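In 14 groups of member probe sets with 4 to 10 animals, the highest or lowest animal was set against the rest of its group, and chance flags about 1 in 20 groups. HCR sham 0432 stood far below its group for Mdm2 probe set 2, at 7.66 (log2), against 7.995 to 8.24 in the other animals. It did so for Mdm2 probe set 3 as well, at 5.16, against 6.24 to 6.71. The same array had the highest 3′ minus 5′ differences of both control genes.

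The smoke change differed between the lines for 4 of the genes named by rule, by limma's interaction term, given as LCR minus HCR. Over all genes 1.87% passed this term. Each of the 4 was named for its small p with smoke in 1 line, a choice that itself favours a difference between lines. Their number is therefore no evidence about the lists. The difference was 0.26 for Cdip1 (adjusted p = 0.0271), whose smoke change was -0.06 in LCR and -0.32 in HCR rats. For Xrcc5, a subunit of the Ku complex of end joining, it was 0.62 (adjusted p = 0.0367), with changes of 0.46 and -0.16. For Tp53bp1, which acts at double-strand breaks, it was -0.21 (adjusted p = 0.0428), with changes of -0.32 and -0.12. For Cebpb, a transcription factor of the ATF4 list, it was 0.39 (adjusted p = 0.0478), with changes of 0.48 and 0.09.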

How the results depend on the processing

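Changes are on the log2 scale, and causes were not tested unless the construction shows them. Across 16 settings besides leaving out single arrays, 395 of 451 values for single genes, probe sets and pairs kept their direction and their side of the threshold. Members called in LCR rats, 0 as reported, numbered 1 after median centring, with array weights, without the 6 arrays and with the airway marker mean. In HCR rats, 3 as reported, they numbered 0 with HCR arrays alone or a 1.5-fold minimum and 1 with the array spread in the fit. Between lines under smoke 1 was called from the mean of probe sets. Leaving out single arrays gave 0 to 1 in LCR and 0 to 3 in HCR rats.

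Genes called numbered 742 in LCR and 453 in HCR rats with the 1.5-fold minimum, and 3024 in HCR rats with the array spread. Between lines under smoke, against 898, they numbered 2860 with array weights, 366 with the array spread, 42 with the 1.5-fold minimum and 487 without the 6 arrays. Under sham, against 531, they numbered 816 after centring, 233 with sham arrays alone, 946 with weights, 830 with the array spread, 88 with the fold minimum and 830 without HCR sham 0432 (single arrays: 314 to 830). For the interaction, against 266, they numbered 552 after centring, 1537 with weights, 562 and 629 with the Gapdh and Actb ratios, 39 with the fold minimum, 58 without the 6 arrays, 768 without HCR sham 0432 and 61 with the airway mean (single arrays: 81 to 768).

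Values near 0 changed sign. Gadd45a in LCR rats was 0.00727 after centring and 0.0226 with the array spread. Mdm2 between lines was 0.0112 (mean of probe sets), 0.0285 (6 arrays out) and 0.0238 (airway mean) under smoke and -0.0157 (airway mean) under sham, and its interaction 0.0395 (airway mean). The Ccng1 interaction was 0.00102 (centring), 0.0264 (weights), 0.0194 (Gapdh), 0.000899 (Actb), 0.0123 (6 arrays out), 0.0259 (HCR sham 0432 out) and 0.00724 (airway mean), and -0.0788 to 0.0423 over single arrays. Mdm2 probe set 2 between lines under smoke was -0.00933 (centring), -0.0278 (quantile) and -0.00425 (Actb), and -0.0325 to 0.0479 over single arrays. Cdkn1a probe set 2 under sham was -0.0109 (6 arrays out), -0.0369 (HCR sham 0432 out), -0.00209 (airway mean) and -0.00687 (Actb), and -0.0369 to 0.146 over single arrays. Pair correlations without the 6 arrays were 0.0904 for Cdkn1a with Ccng1 and -0.0603 for Mdm2 with Gadd45a. Without the 2 farthest arrays these were 0.0660 and -0.0473, and -0.0211 for Mdm2 with Ccng1. No paired analysis was possible because each animal has a number of its own. The airway mean was added after the data were seen. So were, for the further probe sets, the Actb covariate and the arrays left out. The number of arrays and the dimness of Cdkn1a probe set 2 and Mdm2 probe set 3 limit precision.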
